A study of Mus musculus with 82 samples.

Results

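The transcripts described here encode 10 glutamate receptor subunits and receptors that can receive the retinal signal in the suprachiasmatic nucleus (SCN): the AMPA receptor subunits Gria1, Gria2, Gria3 and Gria4, the NMDA receptor subunits Grin1, Grin2a and Grin2b, and the metabotropic receptors Grm3, Grm5 and Grm7. They were taken by gene symbol from the deposited tables and make up 10 of 27515 genes. All 10 were among the 11469 genes tested, which had at least 10 counts in at least 10 libraries. The series holds 82 RNA libraries, each from a hexagon of tissue with a largest radius of 40 µm that was cut by laser from a cresyl violet stained section of the SCN of C57BL/6 mice aged 8 weeks. The hexagons were placed by a grid, not chosen by a marker, and their RNA was amplified by Smart-seq2, which copies whole transcripts from trace amounts of RNA. No treatment or genotype was compared: the labels give each hexagon an anterior-posterior, a dorsal-ventral and a medial-lateral coordinate, with no unit and no statement of which end is which. The 9 anterior-posterior values are called sections here (47, 95, 143, 191, 239, 287, 335, 383 and 431) and hold 4, 6, 12, 14, 12, 14, 13, 6 and 1 hexagons. Animal, sex and time of collection are not in the labels. Some hexagons may come from 1 animal, so every p-value over hexagons is too small and measures the spread between hexagons.

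The SCN is the hypothalamic pacemaker that times daily rhythms. Axons of intrinsically photosensitive retinal ganglion cells reach it through the retinohypothalamic tract, end mostly in its ventral part, where neurons making the peptide VIP lie, and release glutamate together with the peptide PACAP. AMPA receptors carry the fast current, NMDA receptors admit the calcium that starts the clock-resetting cascade through nitric oxide synthase and CREB, and metabotropic receptors tune excitability and release through G proteins. A gene count does not show on which cells, or at which synapses, a receptor sits.

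A single codon in the pore-lining stretch bears on calcium entry in both ionotropic families, and it is shown because GluA2 differs there from the other AMPA subunits in the protein although their genes encode the same amino acid. The windows are from GENCODE M21 on GRCm38, read on the coding strand within coding exons, with the codon of the Q/R site of AMPA subunits or the N site of NMDA subunits in capitals.
Gria1 (chr11:57243094-57243096, plus strand, exon 11 of 16): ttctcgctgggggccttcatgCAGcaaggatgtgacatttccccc
Gria2 (chr3:80706911-80706913, minus strand, exon 11 of 16): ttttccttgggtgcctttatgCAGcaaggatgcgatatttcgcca
Gria3 (chrX:41610265-41610267, plus strand, exon 11 of 16): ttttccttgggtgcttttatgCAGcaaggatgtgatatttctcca
Gria4 (chr9:4464137-4464139, minus strand, exon 12 of 17): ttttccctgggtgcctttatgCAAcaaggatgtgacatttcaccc
Grin1 (chr2:25297386-25297388, minus strand, exon 14 of 21): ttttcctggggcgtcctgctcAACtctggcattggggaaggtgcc
Grin2a (chr16:9653561-9653563, minus strand, exon 10 of 14): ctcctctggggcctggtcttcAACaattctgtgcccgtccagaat

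All 4 AMPA genes carry a glutamine codon there in the genome, and Grin1 and Grin2a carry an asparagine codon. In Gria2 RNA the codon is edited to arginine in adult neurons, as background, and a receptor holding the edited subunit passes little calcium. Gene counts do not read the edited base, nor the flip and flop exons, so neither was measured. The AMPA windows are close to each other: Gria2 and Gria3 matched at 42 of 45 bases, and Gria1 and Gria2 at 36. Grin1 and Grin2a matched at 18 of 45 bases. Adar and Adarb1, which encode RNA editing enzymes, were each detected in 81 of 82 hexagons. Their median levels were 136.1 and 58.8 CPM (counts scaled by library total, with the trimmed mean of M-values (TMM) correction). These levels do not measure editing at this codon.

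Depth bounded what could be read. Total counts per library ran from 11905 to 2843366, with a median of 542267.5, and 5 libraries lay below the median divided by 3. At the median depth a gene at 0 counts could still have had up to 5.53 CPM (3 counts, counting error only). Of the genes that mark the tissue, all 14 SCN neuron markers (among them Vip, Avp, Nms and Six6) and all 8 pan-neuronal markers had a median above 0. The summed CPM of astrocyte markers had a median between 3029 and 5125 in every section, so the hexagons are mixed tissue, in which fewer cells of a type and less RNA per cell cannot be told apart. All 6 meningeal fibroblast markers and 5 of 6 ependymal markers had a median of 0.

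Per gene length, 3 of the 4 AMPA subunit transcripts had the highest medians of the 10, and the other, Gria3, was among the lowest. RPKM (counts scaled by gene length and library total) of Gria1, which encodes GluA1, ran from 21.3 to 108 with a median of 55.3. Gria4, which encodes the fast-gating subunit GluA4, had a median of 31.6 RPKM (11.4 to 62.4). Gria2, which encodes GluA2, had a median of 21.6 RPKM (12.2 to 97.4). These 3 genes and Grm5 had at least 1 count in all 82 hexagons. The highest Gria2 value came from the shallowest library, replicate 4 of section 191, in which it rests on 18 counts, and so did the highest Grm5 value below, on 6 counts.

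Below them came Grin1, the obligatory NMDA subunit, with a median of 14.2 RPKM (0 to 30.8). Grm3, a Gi-coupled receptor found on neurons and astrocytes, had a median of 13.7 RPKM (0 to 47.3). Grm5, a Gq-coupled postsynaptic receptor, had a median of 8.94 RPKM (0.35 to 49.3). Grin2b, which encodes the slowly deactivating subunit GluN2B, had a median of 7.85 RPKM (0 to 17.2). Grm7, a presynaptic Gi-coupled receptor, had a median of 5.06 RPKM (0 to 28.7). Gria3 and Grin2a, which encode GluA3 and GluN2A, were lowest, with medians of 0.907 and 0.672 RPKM.

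In this order the step from Gria1 to Gria4 exceeded the spread: their mean log2(RPKM + 1) differed by 0.78 against SDs of 0.50 and 0.47, and Gria1 was the higher in 75 of 82 hexagons. No other pair of neighbours differed by more than the larger of their SDs. The gene lengths in the deposited table enter this order. Grin2b is scaled by 24842 bases and Grm3 by 3049. Among the AMPA genes, Gria2 is scaled by 15548 bases, against 6043 for Gria1 and 6305 for Gria4. Grin1, Grin2b and Grm7 each overlap an annotated antisense gene (Grin1os, Gm26653 with 2 others, and Gm20387), from which reads cannot be told apart without a known strand setting.

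**Figure D1:**
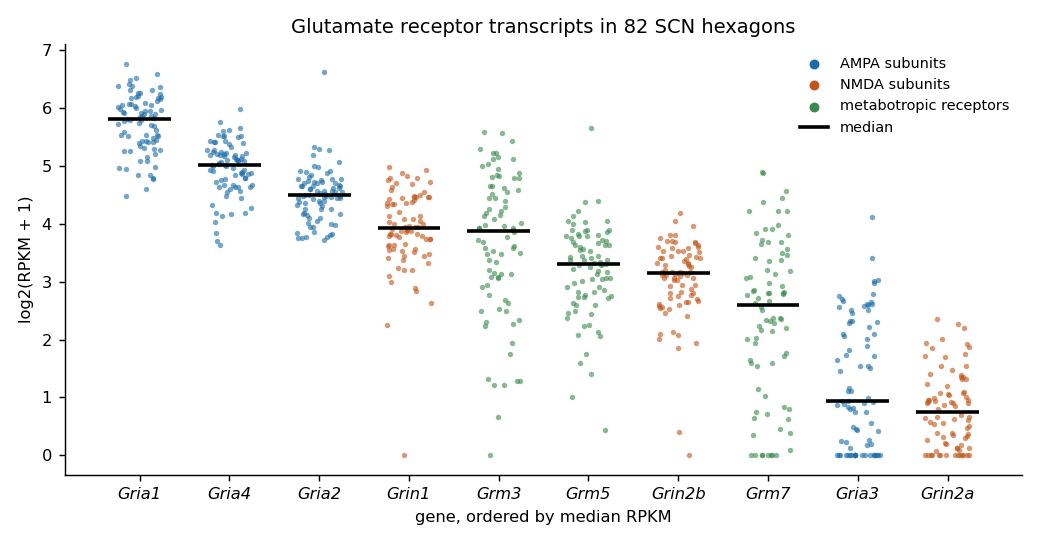
Level of each gene in the 82 hexagons as log2(RPKM + 1), 1 point per hexagon, ordered by the median (black bar). Gria1, Gria4 and Gria2 form the upper end with narrow spreads, while Gria3 and Grin2a lie near the detection floor, with 20 and 14 hexagons at 0.

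The genes also differed in how evenly they were spread. On the CPM scale the coefficient of variation over hexagons was 29.4% for Gria2, 32.3% for Gria4 and 34.7% for Gria1. It was 40.7% for Grin2b, 41.3% for Grin1 and 48.4% for Grm5. Grm3 varied by 73.9% and Grm7 by 94.0%, and the sparse Grin2a and Gria3 by 105% and 127%. Grm7 was at 0 in 8 hexagons and reached 157 CPM, on a median of 29.4 CPM. Low counts and true spread both enter these values: 50 of 82 hexagons held 10 or more counts of Grm7, 34 of Grin2a and 35 of Gria3.

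Expressed as shares of the family's summed RPKM within a hexagon, Gria1 made up 48.8% ± 9.57 of AMPA subunit transcripts (SD, n = 82). Gria4 made up 28.6% ± 7.76, Gria2 20.7% ± 7.77 and Gria3 1.88% ± 2.20. Gene length enters these shares: Gria2 is scaled by 15548 bases, Gria1 by 6043 and Gria4 by 6305. Before scaling by length, Gria2 had a mean of 348 CPM, Gria1 338 CPM and Gria4 201 CPM. Gria1 was the largest share in each of the 9 sections, from 42.0% ± 7.57 in section 287 (n = 14) to 54.6% ± 8.53 in section 143 (n = 12), and these section means differed by more than the larger SD. Among the GluN2 subunits, including Grin2c and Grin2d as other genes of the family, Grin2b held 55.6% ± 20.4 (n = 81) and Grin2c 34.4% ± 22.1. Grin2a held 6.64% ± 8.25 and Grin2d 3.35% ± 5.87. Grin2c, which encodes a low-conductance subunit, thus stood between Grin2b and Grin2a on this scale, with spreads of Grin2b and Grin2c that overlap.

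**Figure D2:**
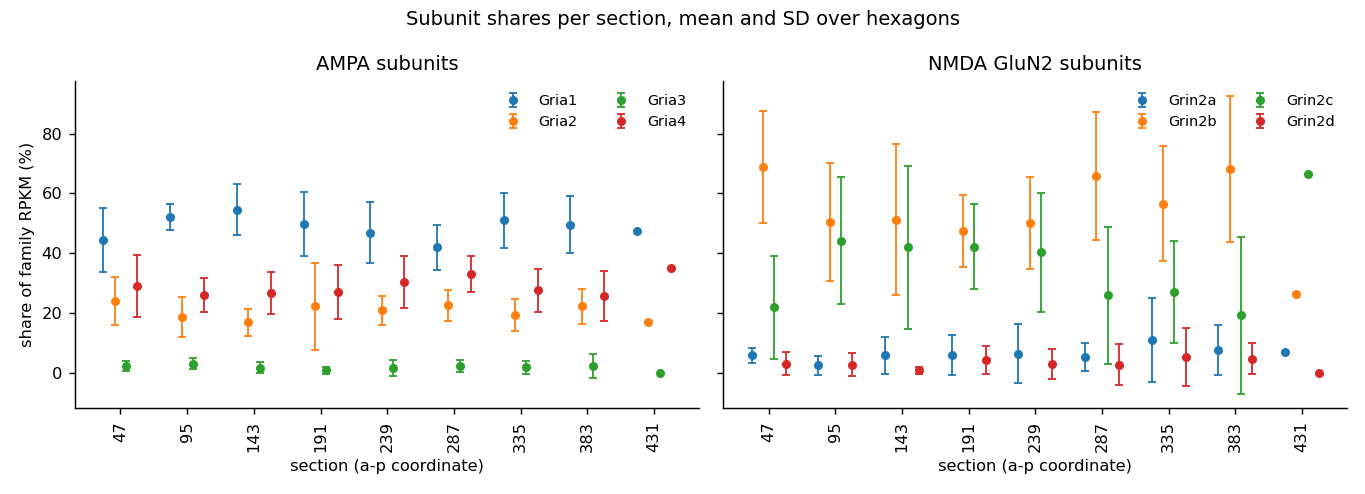
Share of each subunit in the summed RPKM of its family (percent), mean and SD over the hexagons of each section; section 431 holds 1 hexagon and has no SD. Gria1 is the largest AMPA share in every section, and the Grin2b and Grin2c ranges overlap in most.

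Vip marks one end of the dorsal-ventral axis: its mean was 211 CPM in the lowest tercile of the coordinate (hexagons ranked by it and cut into 3 near-equal groups) (n = 27) and 4237 CPM in the highest tercile (n = 27). Along this axis 0 of 10 receptor genes passed an adjusted p of 0.05 in edgeR's quasi-likelihood test with section and the other coordinate in the fit, where 0.793% of all genes tested did. At an unadjusted p under 0.05 there were 2, Grm7 and Grin2b, where 970 of all 11469 genes were. DESeq2 also called 0 of 10, and 154 of all genes. Slopes were negative, toward lower levels on the Vip side, for 8 of 10 genes, with a median of -0.04 log2 per 100 coordinate units, against 0.0026 over all genes, of which 51.5% had a positive slope. No receptor gene was thus called higher on the Vip-rich side. The pan-neuronal marker sum also had its lower median there: 5236 CPM (972 to 6569) in the lowest tercile and 4543 CPM (3675 to 5986) in the highest. All 8 of its markers were detected, and the terciles overlapped. The SCN neuron sum went from a median of 5290 CPM (1340 to 8393) to 6115 CPM (2673 to 22668). That sum includes Vip, whose own median went from 31.1 to 1602 CPM, so its rise is not separate from Vip. The astrocyte sum went from a median of 3538 CPM (1474 to 6022) to 3869 CPM (1862 to 7824). The part of these sums in the slopes was not tested.

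Grm7 had the largest dorsal-ventral slope of the 10 in absolute size. Its level in the lowest tercile ran from 0 to 139 CPM with a median of 33.6, and in the highest tercile from 0 to 80.0 CPM with a median of 19.99. The terciles overlapped widely. The slope was -0.31 log2 per 100 units (SE 0.11, edgeR adjusted p = 0.274). In a joint fit with its own slope for each section it was negative in 6 of 8 sections. Grin2b went from a median of 227 CPM (0 to 327) in the lowest tercile to 174 CPM (7.52 to 387) in the highest. Its slope was -0.11 (SE 0.04, edgeR adjusted p = 0.284), also negative in 6 of 8 sections. For the abundant AMPA genes the 95% intervals of the slope were narrow: -0.10 to 0.03 for Gria1, -0.08 to 0.04 for Gria2 and -0.06 to 0.08 for Gria4.

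On the medial-lateral axis 9 of 10 slopes were positive, with Grm5 the exception, and under the alternatives run 8 or 9 were. The median slope was 0.13 log2 per 100 units, against -0.0044 over all genes, of which 48.7% had a positive slope. In edgeR 0 of 10 passed the adjusted threshold, where 1.38% of all genes did. At an unadjusted p under 0.05 there were 3 (Gria1, Grin1 and Grm7), where 1342 of all 11469 genes were. DESeq2 called 1, Gria1, and 353 of all genes. Every one of the 10 is measured in the same libraries, so the shared sign is not 9 separate observations.

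Gria1 came closest. In the tercile of hexagons with the lowest medial-lateral coordinate it ran from 67.0 to 527 CPM with a median of 293. In the middle tercile it ran from 128 to 674 CPM with a median of 279, and in the highest tercile from 199 to 555 CPM with a median of 399. The terciles overlapped, with the highest tercile shifted up. The slope was 0.16 (SE 0.05), 1.11-fold per 100 units, with an edgeR adjusted p of 0.0782. It was positive in 7 of 8 sections, all but section 383. DESeq2 gave an adjusted p of 0.0348, edgeR without a count filter 0.0397 and without section 383 0.0396. With the library set (the letter that opens each library's label) as a further factor the slope was 0.12 with an adjusted p of 0.559, the upper end of the range over alternatives.

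Marker sums moved along the same axis. The astrocyte sum had a median of 3655 CPM (1474 to 5834) in the lowest medial-lateral tercile and 4304 CPM (2229 to 7824) in the highest. The SCN neuron sum, which includes Vip and Avp, went from 6493 CPM (1340 to 20340) to 4521 CPM (2673 to 16475). The pan-neuronal sum went from 4571 CPM (972 to 6569) to 4856 CPM (3675 to 7084). The oligodendrocyte sum went from 1366 CPM (0 to 8609) to 2097 CPM (363 to 23749). All 10 astrocyte markers were detected, and 2 of 10 oligodendrocyte markers, Ermn and Opalin, had a median of 0. Their part in the Gria1 slope was not tested.

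Grin1 had a median of 126 CPM (0 to 229) in the lowest medial-lateral tercile and 187 CPM (62.7 to 320) in the highest, and its slope was 0.14 (SE 0.06, edgeR adjusted p = 0.306). Grm7 had the steepest slope, 0.37 (SE 0.16, edgeR adjusted p = 0.303). Gria4 and Grin2b had slopes of 0.10 (95% interval -0.0019 to 0.20) and 0.12 (-0.0040 to 0.24). Grm5 had a slope of -0.09 (-0.25 to 0.07). None of these passed, and no bound beyond the printed intervals can be set on them.

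**Figure D3:**
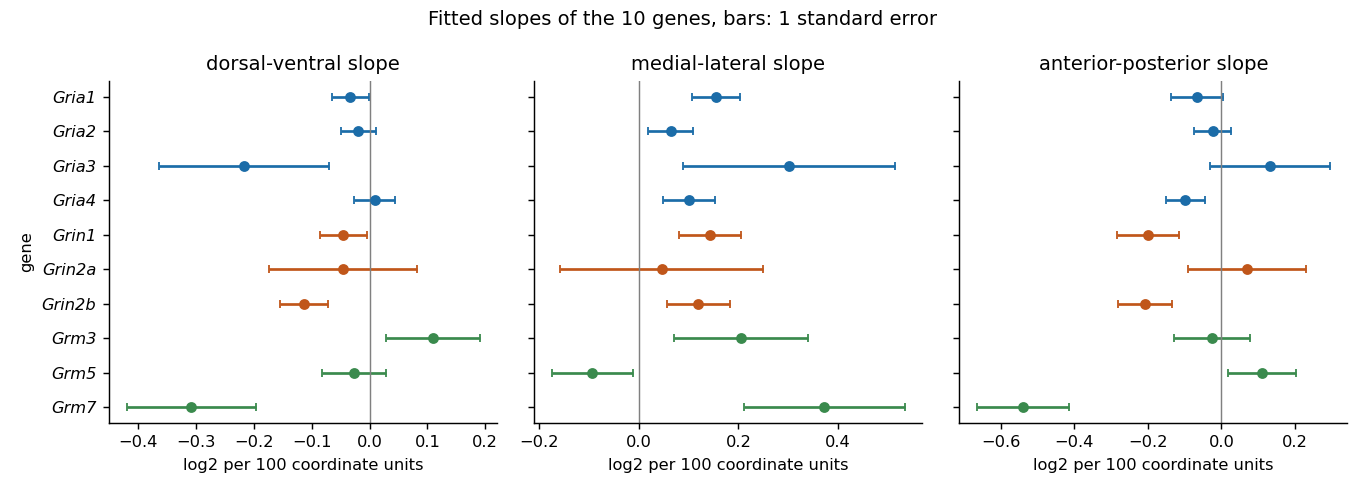
Fitted slope of each gene along the 3 coordinates (log2 per 100 units), points with 1 standard error, from edgeR on 82 hexagons (dorsal-ventral, medial-lateral) or on 8 section sums (anterior-posterior). Grm7 has the largest slope of the 10 in absolute size on each axis, 9 of 10 medial-lateral slopes are above 0, and none passed the adjusted threshold.

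A peak or trough within a section was sought with both coordinates, their squares and their product together. In edgeR 0 of 10 receptor genes passed, where 2.03% of all genes did. Gria1 (adjusted p = 0.301) and Grm7 (adjusted p = 0.425) had an unadjusted p under 0.05, as had 1227 of all 11469 genes. DESeq2 called 0 of 10, and 392 of all genes.

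Along the anterior-posterior axis counts were summed per section, so that each of the 8 sections with 4 or more hexagons was 1 observation. The other coordinates of the summed hexagons are not in this fit. Library sets run in order along the axis, from A in sections 47 and 95 to H in section 383. Position and set were thus not separated in any slope along this axis. Sections may also come from 1 animal, so p-values over section sums can be too small as well. In edgeR 0 of 10 receptor genes passed, where 0.244% of all genes did. At an unadjusted p under 0.05 there were 3 (Grm7, Grin2b and Grin1), all with negative slopes, where 1912 of all 11469 genes were. DESeq2 called 1, Grm7, and 446 of all genes. Across the 10 genes 7 slopes were negative (5 without section 47), with a median of -0.05 log2 per 100 units, against 0.01 over all genes.

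Grm7 had the steepest slope. Its summed level was 63.8 CPM in section 47, 43.1 in 95, 52.9 in 143, 33.0 in 191, 31.9 in 239, 26.4 in 287, 31.9 in 335 and 10.7 in 383. The highest was thus at the low end of the axis and the lowest at the high end. Sections 191 to 335 lay between 26.4 and 33.0 CPM. The slope was -0.54 (SE 0.13), with an edgeR adjusted p of 0.0704 and a DESeq2 adjusted p of 0.00323. Over alternatives the slope lay between -0.68 and -0.26 and the adjusted p between 0.00323 and 0.440. Fitted over hexagons with both other coordinates in the fit, Grm7 did not reach an unadjusted p under 0.05 in edgeR. The single hexagon of section 431, left out of the section sums because it stands alone, went the other way, with 125 CPM. Beside it, pan-neuronal marker sums had medians of 5037 CPM in section 47 and 5352 CPM in section 383, and the oligodendrocyte sum 1139 and 2221 CPM.

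Grin2b was summed to 210.0 CPM in section 47, 208 in 95, 256 in 143, 263 in 191, 228 in 239, 183 in 287, 147 in 335 and 148 in 383. The highest values were in the middle sections and the lowest in 335 and 383. The slope was -0.21 (SE 0.07, edgeR adjusted p = 0.181). Fitted over hexagons with both other coordinates in the fit, it was -0.27 with an edgeR adjusted p of 0.0181, a fit in which hexagons of 1 section count as separate observations. Over the alternatives run, its adjusted p lay between 0.0181 and 0.356. Grin1 had its lowest sum in section 383, 83.1 CPM, and its highest in section 191, 200.3 CPM. Its slope was -0.20 (SE 0.08, edgeR adjusted p = 0.247). In the edgeR fit over hexagons Grin1 did not reach an unadjusted p under 0.05.

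**Figure D4:**
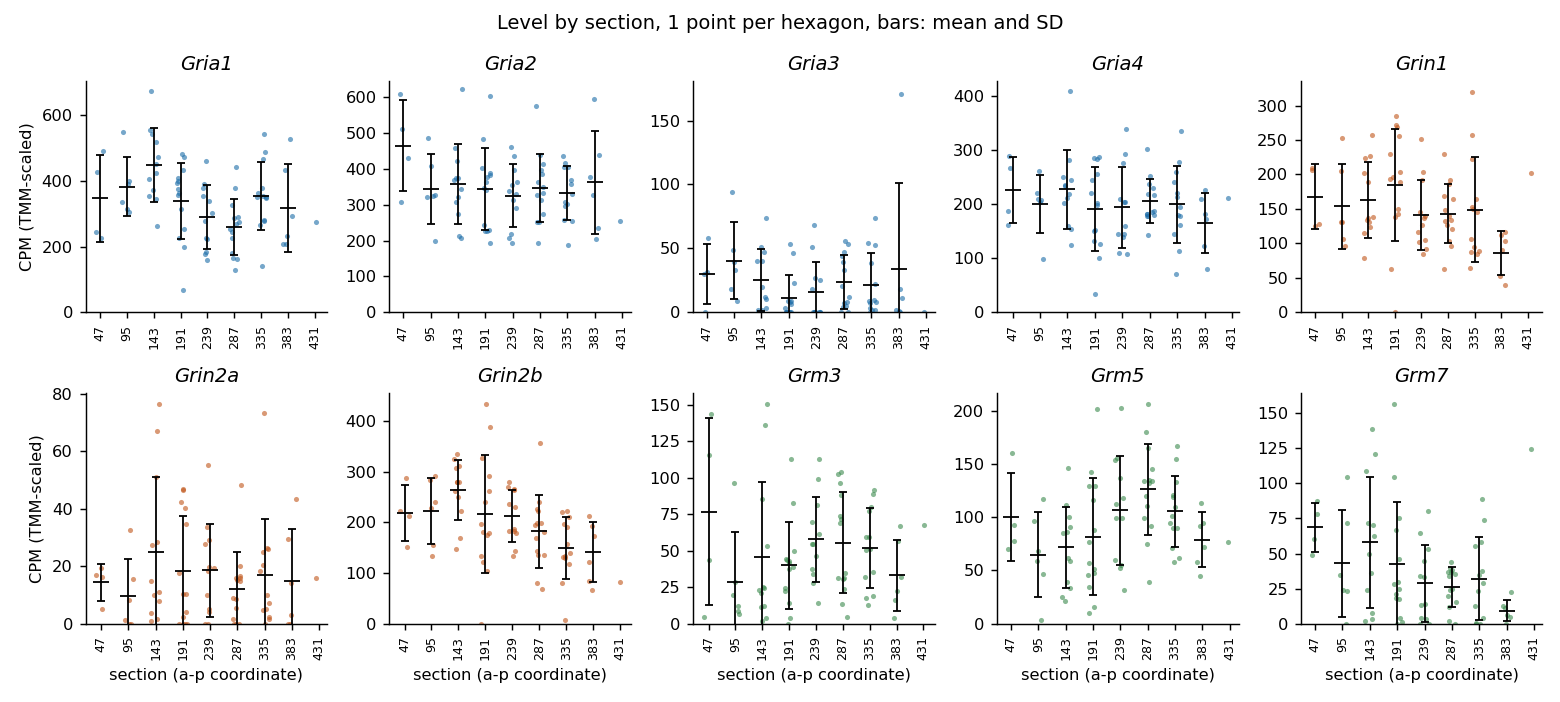
TMM-scaled CPM of each gene by section, 1 point per hexagon, with mean and SD (section 431 holds 1 hexagon). Grin2b is lowest in sections 335, 383 and 431, and Grm7 means run from 68.6 CPM in section 47 to 9.45 CPM in section 383, with the single hexagon of section 431 at 125 CPM.

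Asked without a direction, whether a level differed between sections in any way, edgeR called 0 of 10 receptor genes, where 3.59% of all genes were called. Gria1 (adjusted p = 0.182) and Grin2b (adjusted p = 0.219) had an unadjusted p under 0.05, as had 1603 of all 11469 genes. DESeq2 called 0 of 10, and 829 of all genes. Gria1 was highest in section 143, at 448 ± 113 CPM (SD, n = 12), and lowest in section 287, at 259 ± 86.5 CPM (n = 14). Grm5 had the opposite order of these sections, with 71.7 ± 38.2 CPM in section 143 and 126 ± 42.8 CPM in section 287. For each gene, all 7 pairs of neighbours in the order of section means differed by less than the larger of their SDs. That also held for Vip, whose highest and lowest sections lay 8.97 log2 apart, so it does not show that sections are alike. The gap from highest to lowest section exceeded the larger SD for Gria1, Gria2, Gria3, Grin1, Grm3 and Grm7. It did not for Gria4, Grin2a, Grin2b and Grm5. Both ends were picked as the extremes. Sections and library sets partly coincide: section 143 is all of set B, and sections 47 and 95 are both set A. Section and set cannot be told apart for these differences.

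Whether a within-section slope itself changed from section to section was a test added after the data had been seen. By edgeR, 0 of 10 receptor genes passed for the dorsal-ventral slope, where 0.157% of all genes did, and 0 of 10 for the medial-lateral slope, where 0.061% did. At an unadjusted p under 0.05 there were 1 (Grm3) and 2 (Grm3 and Grin2a), where 797 and 1002 of all 11469 genes were. DESeq2 was not run on this test. Grm3 had the smallest p of the 10 for the medial-lateral slope (edgeR adjusted p = 0.145). Its slope was 1.27 in section 143, 0.34 in 191, 0.12 in 239, -0.38 in 287, -0.49 in 335 and -1.04 in 383. It was positive in the 5 sections up to 239 and negative in the 3 beyond.

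**Figure D5:**
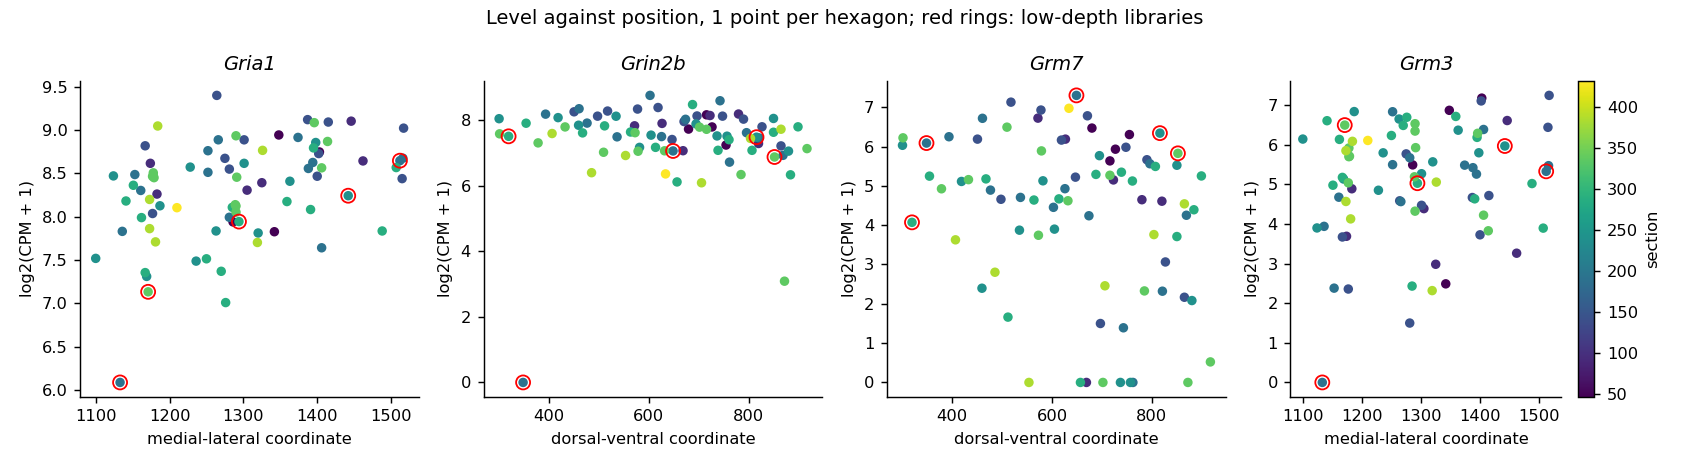
log2(CPM + 1) of Gria1 and Grm3 against the medial-lateral coordinate and of Grin2b and Grm7 against the dorsal-ventral coordinate, 1 point per hexagon, coloured by section, with red rings on the 5 low-depth libraries. Gria1 medians are 293 CPM in the lowest and 399 CPM in the highest tercile of the axis, with wide overlap, and the lowest Gria1 point is the shallowest library.

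The balance of subunits was followed as 3 log2 ratios of CPM per kilobase with a pseudocount of 5. The ratio of Gria2 to the other AMPA subunits had a median of -1.83 over 82 hexagons (-2.93 to 1.03). In 9 tests of these ratios against the 3 axes, none passed after Benjamini-Hochberg adjustment over the 9. Grin2a to Grin2b along the anterior-posterior axis had the smallest, with a slope of 0.14 (exact permutation test over 8 section sums, two-sided p = 0.0193, adjusted p = 0.174). Its size depended on the pseudocount: it was 0.22 with a pseudocount of 1 (exact permutation test, adjusted p = 0.161) and 0.06 with 20 (exact permutation test, adjusted p = 0.0876). On the dorsal-ventral axis its slope was 0.05 (permutation test, adjusted p = 0.205), 0.03 with a pseudocount of 20 (adjusted p = 0.0876), and 0.0826 (adjusted p = 0.0484) without the 5 low-depth libraries. Grin2a reached at most 4.10 RPKM, so the pseudocount of 5 made up most of the numerator of the Grin2a to Grin2b ratio. A shift in this ratio cannot be told apart from a change in Grin2b alone. The ratio of Gria2 to the rest had a medial-lateral slope of -0.11 (permutation test, adjusted p = 0.205), which was -0.05 without the low-depth libraries (adjusted p = 0.483) and -0.06 without section 191 (adjusted p = 0.397).

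Members of the group were weakly related to each other from hexagon to hexagon. Spearman's rho was taken over the 77 hexagons that were not of low depth, after removing section means and log2 library total, and is a description, since all genes of a hexagon share its library and input. The highest of the 45 pairs was Grin2b with Grm7, at 0.40, followed by Gria1 with Gria3 at 0.34. Some values with the peptides that mark SCN neurons were larger in absolute size. With Vip, rho was -0.53 for Grm7, -0.47 for Grin2b, -0.31 for Gria3, 0.31 for Grm3 and -0.28 for Grin1. For the rest it lay between -0.16 and -0.01. With Avp it was 0.40 for Grin2b and -0.50 for Grm3, and between -0.28 and 0.13 for the rest. Grm3 thus had the opposite signs to Grin2b with both peptides.

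Relation to marker sums also differed between the genes. The SCN neuron sum includes Vip and Avp, so its rho values are not separate from those with these peptides. Gria1 had a rho of -0.41 with the SCN neuron sum, 0.23 with the pan-neuronal sum and 0.32 with the astrocyte sum. Grin2b had -0.24, 0.39 and -0.24 with the same sums, and Grm7 -0.30, 0.35 and 0.01. Grm3 had 0.11, 0.05 and 0.27.

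Among 8146 genes with a mean of at least 20 CPM, the 3 whose residual pattern was most like each receptor's were listed by the same rho over 77 hexagons. For Grm7 they were Fgf12 (0.64), Ndrg4 (0.59) and Syt1 (0.57), the highest values in the group. For Gria1 they were Gsdme (0.53), Reln (0.49) and Ndufv2 (0.48), and for Gria2 Coprs, Fgf12 and Vstm2a (0.48 to 0.51). For Grin1 they were Dnm1 (0.52), the dynamin of synaptic vesicle retrieval, Slc12a5 (0.46), the neuronal chloride exporter, and Faim2 (0.46). For Grin2b they were Hs6st2, Parva and Mef2c (0.50 to 0.52), and for Grm3 Rph3a, Tubb4a and Lrrtm3 (0.43 to 0.45). Gria3 was most like Ncs1, Napb and Asap2 (0.50 to 0.53) and Grin2a like Slc7a11, Glud1 and Gdap1 (0.43 to 0.44). For Grm5 they were Mcc, Nsmce4a and Kcnip2 (0.39 to 0.44), and for Gria4 Armc1, Zcrb1 and 2210016L21Rik (0.37 to 0.42).

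The other genes of glutamate signalling, 71 in 5 lists, included 62 that were tested. On the dorsal-ventral axis edgeR called 1 of 62, where 0.793% of all genes were called, and on the medial-lateral axis 1 of 62, where 1.38% were. A single call is close to these shares, so neither count sets the lists apart from other genes. The dorsal-ventral call was Nos1, neuronal nitric oxide synthase, which acts downstream of NMDA receptors: it ran from 0 to 215 CPM with a median of 43.9 in the lowest dorsal-ventral tercile and from 0 to 98.2 CPM with a median of 5.57 in the highest. Its slope was -0.47 (SE 0.12, edgeR adjusted p = 0.0222), lower on the Vip side, and 15 of 19 alternatives kept the call, all but those without section 143, 191, 239 or 335 (adjusted p up to 0.185). Nsf, an ATPase of vesicle fusion that also binds GluA2, rose medial-laterally by 0.20 log2 per 100 units (SE 0.05, edgeR adjusted p = 0.0119). Its call was lost with library set as a factor and without section 287 or 335 (adjusted p up to 0.331).

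In the test of both coordinates, their squares and product, 4 of 62 were called, where 2.03% of all genes were: Gsg1l (edgeR adjusted p = 0.00324), the glial glutamate transporter Slc1a2 (0.0105), Nos1 (0.0153) and Nsf (0.0364). Gsg1l lost this call without section 287, Slc1a2 without section 143, 239 or 287, and Nos1 without section 191, 239, 287 or 335, while Nsf kept it in 10 of 19 alternatives. In the test between sections 11 of 62 were called, where 3.59% of all genes were, among them Gsg1l, Shank2, Nos1ap, Shisa6, Grm8, Nptxr, Cnih3, Slc1a3, Slc1a2 and Grin2c. Gsg1l, an auxiliary subunit that modulates AMPA receptor gating, was at 69.2 ± 53.5 CPM in section 239 (n = 12) and 62.2 ± 80.6 in section 287 (n = 14), against 4.25 ± 7.31 in section 143 (n = 12) and 0.96 ± 1.08 in section 383 (n = 6). Its edgeR adjusted p was 6.97e-05. Grin2c was highest in section 143, at 68.3 ± 68.8 CPM (n = 12), and lowest in section 383, at 8.85 ± 12.2 CPM (n = 6), with an edgeR adjusted p of 0.0471 that was lost in 10 of 19 alternatives, among them those without the low-depth libraries and without any 1 of sections 143, 191, 239, 287, 335 and 383. Of the others named, Slc1a2 kept its call in 6 of 19 alternatives, Slc1a3 in 8, Nptxr in 11, Shisa6 and Cnih3 in 15, Nos1ap in 16, Shank2 in 17 and Gsg1l in 18, and Grm8 in 13 of 15. With library set as a further factor none of the 11 kept its call (edgeR adjusted p = 0.9999 for each). On the anterior-posterior slope edgeR called 0 of 62, where 0.244% of all genes were called, with 15 at an unadjusted p under 0.05 (1912 of all 11469 genes), and DESeq2 called 9 (446 of all genes). By list, against the same 3.59% of all genes, the test between sections called 2 of 12 other glutamate receptors, 4 of 16 auxiliary subunits, 2 of 23 scaffold and signalling genes, 3 of 9 genes of glutamate release, uptake and metabolism and 0 of 2 editing enzymes (edgeR, with 0 at an unadjusted p under 0.05 and 0 by DESeq2). The dorsal-ventral slope differed between sections for 1 of 62, where 0.157% of all genes did: Nptx1, a secreted protein that gathers AMPA receptors (edgeR adjusted p = 0.0125).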

How the data were processed

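RNA was measured in 82 laser-cut hexagons of mouse SCN. The deposited counts are whole numbers for 27515 genes, and deposited RPKM values cover 27055 of them. The authors' RPKM equals the counts divided by the gene length and library total to a relative deviation of 5.15e-15. Tools named, per the submitters' processing notes, are bcl2fastq 2 and STAR, with the build GRCm38; counter, strandedness and annotation: not given in the sources used here. Gene lengths are also the authors', per the file headers. Total counts were 11905 to 2843366 per library.

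From the counts, slopes per 100 coordinate units and section differences were tested with edgeR 4.0.16 (R 4.3.3, TMM, quasi-likelihood, section as factor, Benjamini-Hochberg over 11469 genes with 10 counts in 10 libraries, threshold 0.05), after a check on simulated data. The 95% intervals use the normal approximation. Anterior-posterior slopes used counts summed per section. Subunit ratios used a pseudocount of 5 (1 and 20 as alternatives) and 100000 permutations within sections, or all 40320 orders of 8 section sums. Levels and terciles are descriptions. Alternatives were DESeq2 1.42.0, other scaling, no filter, no low-depth libraries, library set as a factor, and leaving out sections or hexagons. The slope-by-section tests were added after the data had been seen. All 10 receptor genes are reported on each axis; of the pathway lists, genes with an adjusted p under 0.05 are named, up to 4 per list and test by smallest p. Grin2d, Adar and Adarb1 are named outside this rule. A gene that the rule would name, and a pore window, are not reported here. Genes and lists were chosen with earlier results of these data known. All value columns were matched to samples by label.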

Additional observations from a re-analysis of the deposited data

Results flagged for a closer look

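Among 30 groups of a receptor gene and a section with 4 to 10 hexagons, 3 held a hexagon that stood far from the others by Dixon's criterion at the 95% level, a criterion that flags about 1 in 20 groups by chance. Gria3 in section 383 was 170.7 CPM in replicate 1, next to 17.9 CPM in the second highest hexagon. Gria4 in section 95 was 97.9 CPM in replicate 6, next to 203.6 CPM in the second lowest. Grm3 in section 95 was 96.7 CPM in replicate 2, next to 28.6 CPM in the second highest. The sum of Gria3 in section 383, 57.8 CPM, includes replicate 1.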

How the results depend on the processing

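On the dorsal-ventral slope, the test of both coordinates with their squares and product, and the test between sections, 0 of 10 receptor genes were called under each alternative run, DESeq2 included. At an unadjusted p under 0.05 there were 2 in each of these edgeR tests as reported, and 0 to 4 over the alternatives. Over all 11469 genes the reported tests had 970, 1227 and 1603 at that level. On the medial-lateral slope 1 receptor gene, Gria1, was called by DESeq2, without a count filter and without section 383 (range 0 to 1 over left-out sections and hexagons). On the anterior-posterior slope 1 was called by DESeq2 (Grm7) and 1 over hexagons with coordinates in the fit (Grin2b). The count over all genes moved more. On the dorsal-ventral slope it was 91, with 154 by DESeq2, 799 without a filter and 44 to 137 with a section or hexagon left out. On the medial-lateral slope it was 158, with 353 by DESeq2, 912 without a filter, 14 with library set as a factor and 31 to 186 with a section or hexagon left out. In the test of both coordinates, their squares and product it was 233, with 392 by DESeq2, 3538 without a filter, 140 with library set and 81 to 265 with a section or hexagon left out. Between sections it was 412, with 829 by DESeq2, 4313 without a filter, 0 with library set in edgeR (460 at an unadjusted p under 0.05; DESeq2 was not run with it) and 244 to 464 with a section or hexagon left out. On the anterior-posterior slope it was 28, with 446 by DESeq2, 106 without a filter, 337 over hexagons and 1 to 85 with a section left out, the lowest without section 335 and the highest without section 383. The cause was not tested.

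The dorsal-ventral slope of the Grin2a to Grin2b ratio passed without the low-depth libraries (0.0826, permutation test, adjusted p = 0.0484). The pseudocount of 5 makes up most of the numerator of that ratio. No called value changed sign. Slopes that did not pass and changed sign by more than their standard error were Grin2a on the medial-lateral axis with library set (-0.27), Grm3 there without section 143 (-0.0022), and on the anterior-posterior axis Gria2 without section 47 (0.04), Gria3 without section 383 (-0.26) and Grm3 over hexagons (0.10) or without section 47 (0.12). No paired analysis was possible because the labels name no animal. The labels also carry no replicate numbers, and numbers were given in accession order. Depth limits Gria3, Grin2a and Grm7 most, with 20, 14 and 8 hexagons at 0.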
